A study of Homo sapiens with 6 samples.

Results

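Complement is a set of blood and cell-surface proteins that tag and lyse cells and microbes, and 9 of its genes were followed here in an ovarian cancer cell line carrying different alleles of STING1, the receptor of the cyclic dinucleotide 2'3'-cGAMP. The genes were taken by name, as the rows of the deposited count table whose symbol was CFB, C3, C1R, C1S, SERPING1, CFI, CD46, CD55 or CD59, and they are 9 of the 60498 genes in that table. CFB, C3, C1R and C1S were treated as the 4 components, and SERPING1, CFI, CD46, CD55 and CD59 as the 5 inhibitors. The cells were SKOV3, an established line from an ovarian adenocarcinoma. The parent line is labelled WT/HAQ, that is, it carries a wild-type and a HAQ haplotype of STING1. The clones labelled WT/- and HAQ/- were derived from it by dual-guide CRISPR/Cas9 delivered by lentivirus, and each keeps 1 STING1 haplotype. Each line has a control library and a library from cells given 2'3'-cGAMP at 10 µg/mL for 30 minutes and rested for 4 hours. The study's methods describe cGAMP delivery in a digitonin permeabilization buffer, and the handling of the control cells is not given in the sources used here. There was 1 library per line and treatment, so a fold within a line has no replicate, and in a clone the haplotype and the clone cannot be told apart.

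The 6 libraries held between 12444791 and 17608427 estimated counts, with 21186 to 21984 genes detected in each. Levels are given as normalized counts, that is, estimated counts scaled by library size with the trimmed mean of M values (TMM) in edgeR. The table lists STING1 under its older symbol TMEM173, at 669, 353 and 213 normalized counts in the WT/HAQ, WT/- and HAQ/- control libraries and 1780.2, 553 and 403 after cGAMP. Of 8 carcinoma markers, 6 reached 100 normalized counts. Among these was ERBB2, the receptor kinase amplified in SKOV3, at 46462.6 to 69247, and PAX8, a marker of Müllerian epithelium, at 1966 to 9391, whereas MUC16 and WT1, which also mark ovarian carcinomas, stayed at 0.9 to 68.4 and 1.9 to 23.8. All 6 leukocyte markers and all 3 endothelial markers stayed under 20 normalized counts in every library, with summed levels of 3.28 to 16.6 and 9.72 to 39.2, and C1QA was at 0. Of the hepatocyte markers, APOA1 and TTR had at most 1 count, while ALB reached 154 to 574 and SERPINA1 66.3 to 262. In bulk RNA, fewer expressing cells and less RNA per cell cannot be told apart.

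Complement is started by 3 routes that meet at C3. In the classical route, the serine proteases C1r and C1s are held by C1q, and when C1q binds an antibody or a cell surface, C1r activates C1s, which cleaves C4 and C2. In the alternative route, factor B (CFB) binds C3b and supplies the protease of the C3 convertase, so that more C3b is laid down around the first molecules. The inhibitors act at different steps: C1 inhibitor (SERPING1) traps C1r and C1s, factor I (CFI) cuts C3b and C4b, CD46 is a membrane cofactor for factor I, CD55 speeds the decay of the C3 convertases, and CD59 blocks the last step, assembly of the membrane attack complex. The liver makes most of the plasma proteins, but many epithelial and tumor cells transcribe C3, CFB, C1R and C1S as well, and CFB and SERPING1 are known as interferon-responsive genes.

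The 9 genes lie on 6 chromosomes of GRCh38. Some of them are neighbors: C1S (chr12:6988259-7071032, plus strand) and C1R (chr12:7080214-7092540, minus strand) are 9181 bp apart, and CD55 (chr1:207321519-207386804) and CD46 (chr1:207752037-207795513), both on the plus strand, are 365232 bp apart. CFB lies in the major histocompatibility complex at chr6:31945650-31952086. C3 is at chr19:6677704-6730562, SERPING1 at chr11:57597387-57619171, CD59 at chr11:33703010-33736479 and CFI at chr4:109731008-109802150. These are GENCODE 44 coordinates of whole genes, with 4 exons in the canonical transcript of CD59 and 41 in that of C3. Several members share bases with another gene, and whether the authors counted by strand is not given in the sources used here. C3 shares 649 bases with GPR108 (446 to 779 estimated counts in the 6 libraries), C1R shares 2954 bases with C1RL (375 to 512) and C1S shares 30219 bases with LPCAT3 on the other strand (338 to 479). CFB shares 24 bases with C2, which had 2 to 16 estimated counts, and 6399 with a same-strand gene that had 0. CD46 shares 34864 bases with MIR29B2CHG on the other strand (52 to 132). CFI, CD59 and C1S share 70992, 19458 and 9170 bases with same-strand genes that have no row in the count table. All these are bases of whole gene spans, introns included.

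Promoter windows, from 250 bases before to 50 bases after an annotated start, were available in RefSeq (GRCh38.p14) for 6 of the 9 members, CFB, C1R, CFI, CD46, CD55 and CD59, with 11 windows in all. Printed here are the windows of CFB and CD55, which were among the members with the larger cGAMP folds. With them stands a window each of C1R and CD59, among those with the smaller folds, that held a match to a motif named below. The windows of CD46 and CFI, whose folds were also small, held no match and are not printed. Both strands were searched for an interferon-stimulated response element core (GAAA and GAAA separated by any 2 bases), a gamma-activated sequence (TTCNNNGAA) and a kappa B motif (GGG and TTTCC separated by any 2 bases). Capitals mark the matches in the windows printed here, each read 5′ to 3′ on the strand of its gene.

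CFB, chr6:31945845-31946144, plus strand: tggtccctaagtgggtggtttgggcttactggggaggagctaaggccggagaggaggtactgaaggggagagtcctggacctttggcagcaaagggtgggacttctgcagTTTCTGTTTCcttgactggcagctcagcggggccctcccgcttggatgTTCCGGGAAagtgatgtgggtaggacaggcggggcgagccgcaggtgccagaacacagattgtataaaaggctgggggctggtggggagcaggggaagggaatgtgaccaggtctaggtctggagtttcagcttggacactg
C1R, second window, chr12:7091844-7092143, minus strand: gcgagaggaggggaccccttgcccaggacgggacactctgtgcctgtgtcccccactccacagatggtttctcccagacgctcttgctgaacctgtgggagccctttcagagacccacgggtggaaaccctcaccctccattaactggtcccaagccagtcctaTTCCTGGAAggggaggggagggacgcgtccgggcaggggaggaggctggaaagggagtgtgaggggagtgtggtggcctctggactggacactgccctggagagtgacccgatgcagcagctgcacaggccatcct
CD59, first window, chr11:33736430-33736729, minus strand: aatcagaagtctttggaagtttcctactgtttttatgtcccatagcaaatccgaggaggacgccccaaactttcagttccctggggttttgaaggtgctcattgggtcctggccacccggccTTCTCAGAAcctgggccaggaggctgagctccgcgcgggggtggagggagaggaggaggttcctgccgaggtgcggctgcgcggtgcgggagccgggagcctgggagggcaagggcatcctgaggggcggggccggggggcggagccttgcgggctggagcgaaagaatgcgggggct
CD55, chr1:207321428-207321727, plus strand: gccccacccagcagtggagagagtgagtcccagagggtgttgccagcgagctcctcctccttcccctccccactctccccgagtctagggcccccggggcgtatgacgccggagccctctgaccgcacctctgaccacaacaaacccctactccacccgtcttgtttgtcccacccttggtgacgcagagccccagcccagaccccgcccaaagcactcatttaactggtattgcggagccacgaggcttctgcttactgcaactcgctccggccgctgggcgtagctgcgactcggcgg

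The CFB window held a match to the response element core, read on the minus strand, 140 to 131 bases before the start, and a gamma-activated sequence match 92 to 84 bases before it. Of all 35116 RefSeq windows of this length, 3.57% held the first motif, 7.66% the second and 0.439% both. A gamma-activated sequence match also stood 86 to 78 bases before the second C1R start and 128 to 120 bases before the first CD59 start, and the second CD59 window covers the same CD59 site. CD55, CD46 and CFI windows held no match to any of the 3 motifs, and no member window held a kappa B match, which 1.91% of all windows did.

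CFB had the largest cGAMP fold of the 9 members in the parent line and the WT/- clone. In HAQ/- its interval overlapped those of SERPING1 and C1S, so its fold could not be ranked against theirs. The control libraries held 643 normalized counts of it in the parent line, 1886 in the WT/- clone and 405 in the HAQ/- clone. After cGAMP the same lines held 7415, 11434 and 824. The cGAMP libraries of the lines with a WT allele were therefore the highest pair, and the HAQ/- cGAMP library lay below the untreated WT/- library. The parent line had a fold of 11.5 (95% Wilson interval 10.7 to 12.5). The WT/- clone had 6.06 (5.78 to 6.36), and the HAQ/- clone had the smallest, 2.04 (1.81 to 2.29). These intervals do not overlap, but like all intervals given here they cover counting error only, not the spread between cultures.

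C3, on which all routes converge, differed far more between the lines than with cGAMP. The parent line held 2182 normalized counts without and 3153 with cGAMP. The WT/- clone held 11817 and 12508, and the HAQ/- clone 266 and 252. The 3 lines did not overlap. With cGAMP the parent line was 1.44-fold (1.37 to 1.52) higher and the WT/- clone 1.06-fold (1.03 to 1.09). The HAQ/- fold was 0.946 (0.798 to 1.12), an interval that includes no change.

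The classical-route proteases C1R and C1S were expressed at similar levels in each library. The cGAMP fold was the larger for C1S in each line, but the intervals of both genes overlapped and the difference was not tested. C1S stood at 122 and 208 normalized counts without and with cGAMP in WT/HAQ, 547 and 760.0 in WT/-, and 117 and 187 in HAQ/-. C1R stood at 158 and 188, 498 and 617, and 153 and 175 in the same order. For both, the WT/- libraries were above all others and the WT/HAQ and HAQ/- libraries overlapped. The C1S folds were 1.71 (1.38 to 2.11), 1.39 (1.24 to 1.56) and 1.60 (1.28 to 2.01) in WT/HAQ, WT/- and HAQ/-. Those of C1R were 1.19 (0.972 to 1.46), 1.24 (1.09 to 1.40) and 1.15 (0.926 to 1.42), so that only the WT/- interval lies above 1. Per kb of transcript, the ratio of C1S to C1R was 0.715, 1.02 and 0.710 in the control libraries of WT/HAQ, WT/- and HAQ/- and 1.03, 1.14 and 0.991 in their cGAMP libraries.

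**Figure D1:**
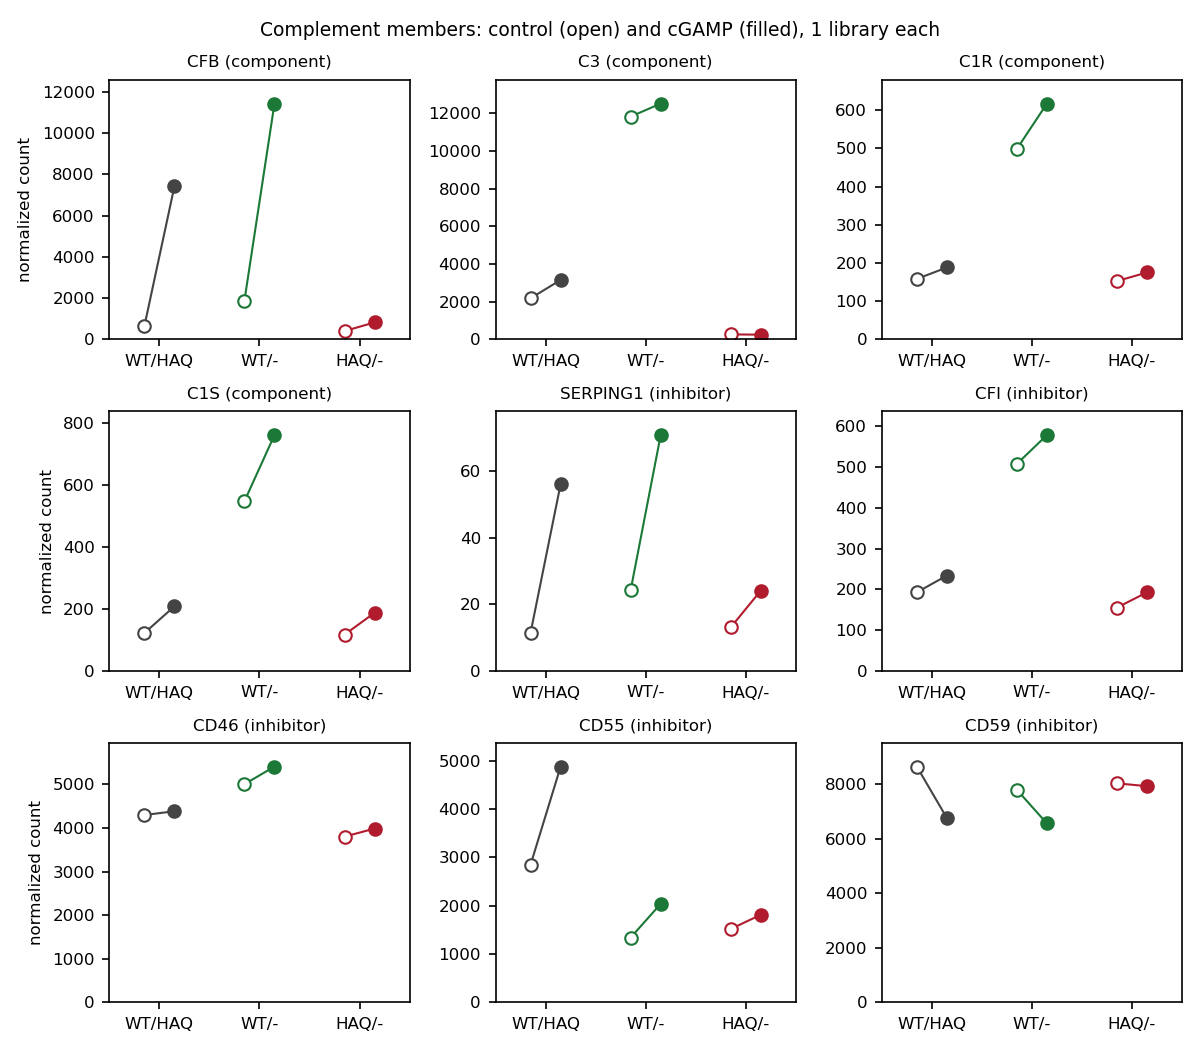
Normalized counts (vertical axis, from 0, own scale per gene) of the 9 members in the control (open) and cGAMP (filled) library of each line, 1 library per point, joined within a line. CFB climbs from 643 to 7415 in WT/HAQ and from 405 to 824 in HAQ/-, while C3 separates by line, from 252 in HAQ/- to 12508 in WT/-.

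SERPING1, the inhibitor of C1r and C1s, was the lowest member in every library and had the second largest fold in both lines with a WT allele. It had 11.5 and 56.1 normalized counts without and with cGAMP in WT/HAQ, 24.3 and 70.8 in WT/-, and 13.1 and 24.1 in HAQ/-. The folds rest on few molecules, since the estimated counts behind them were 13 and 59, 26 and 53, and 15 and 22. They were 4.88 (2.70 to 8.82), 2.92 (1.83 to 4.64) and 1.84 (0.965 to 3.51), and the HAQ/- interval includes no change as well as the whole CFB interval in that line. With all libraries thinned to the smallest total, the HAQ/- log2 fold was 1.08 for SERPING1 and 1.002 for CFB.

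CD55, the decay-accelerating factor, was higher in the cGAMP library of each line. Its levels were 2851 and 4879.6 in WT/HAQ, 1342 and 2039.5 in WT/- and 1519 and 1814 in HAQ/-. Both WT/HAQ libraries lay above all 4 clone libraries. The cGAMP folds were 1.71 (1.64 to 1.79), 1.52 (1.41 to 1.63) and 1.19 (1.12 to 1.28).

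The other inhibitors had small folds. CFI, the protease that inactivates C3b, was at 193 and 234 normalized counts in WT/HAQ, 508 and 578 in WT/- and 155 and 193 in HAQ/-, with folds of 1.21 (1.01 to 1.46), 1.14 and 1.24 (1.01 to 1.53). CD46 was at 4295 and 4382, 5001 and 5405, and 3799 and 3984, with folds of 1.02, 1.08 and 1.05. CD59, by contrast, was lower in the cGAMP library of every line. It stood at 8657 and 6771 in WT/HAQ, 7805 and 6569 in WT/- and 8044 and 7937 in HAQ/-, with folds of 0.782 (0.759 to 0.806), 0.842 (0.813 to 0.872) and 0.987 (0.957 to 1.02).

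**Figure D2:**
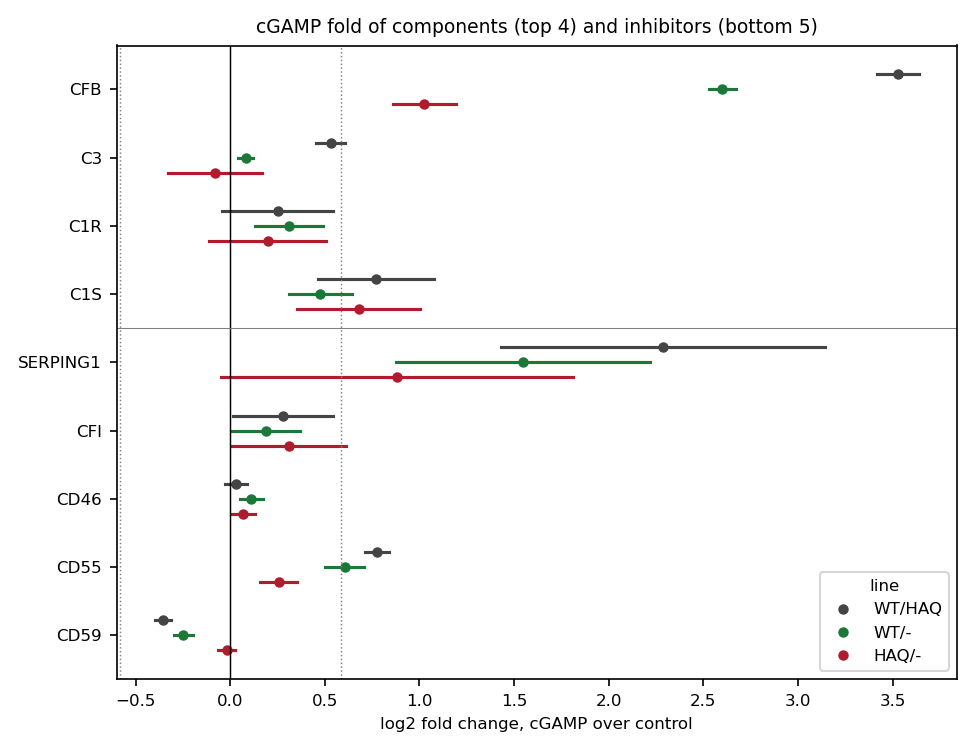
Log2 fold change of the cGAMP over the control library in each line (horizontal axis) for the 4 components (top) and 5 inhibitors (bottom). Points are single library pairs, bars are 95% Wilson intervals for counting error, and dotted lines mark 1.5-fold. For the parent, WT/- and HAQ/- in turn, CFB lies at 3.53, 2.60 and 1.03 and CD59 at -0.35, -0.25 and -0.02.

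At a threshold of 1.5-fold, 4 members were raised in WT/HAQ (CFB, C1S, SERPING1 and CD55), against 12.9% of the 15114 genes with a usable fold in that line. In WT/-, 3 were raised (CFB, SERPING1 and CD55) against 11.9% of 15099 genes, or 2 when scaled by total counts only, where CD55 was at a log2 fold of 0.54. In HAQ/-, 3 were raised (CFB, C1S and SERPING1) against 6.77% of 15072. C1S in WT/- (1.39-fold) and C3 in WT/HAQ (1.44-fold) fell just short of that threshold, and CD55 in WT/- (1.52-fold) lay just past it. No member was lowered that far in any line, whereas 12.3%, 8.79% and 5.79% of genes were. The median log2 fold of the 9 members was 0.53, 0.31 and 0.26 in WT/HAQ, WT/- and HAQ/-, beside -0.01, 0 and -0.01 over all genes.

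The treatment was then tested across the 3 lines, taking each line as a block, with the edgeR quasi-likelihood test and Benjamini-Hochberg adjustment over 15126 genes. This fit leaves 2 residual degrees of freedom, and the lines share their origin, so the spread it measures is that between the responses of these lines. The test also draws each gene's variance toward that of other genes. Of the 9 members, C1S was the only one past an adjusted p of 0.05, with a log2 change of 0.63 ± 0.10 (SE), an adjusted p of 0.0462 and a higher level in 3 of 3 lines. Over all genes, 2.27% passed with a higher level and 0.959% with a lower one. CFB had a larger change, 2.42 ± 0.49, but its lines differed more and its adjusted p was 0.0694. CD55 (0.55 ± 0.11, adjusted p 0.0729) and SERPING1 (1.59 ± 0.34, adjusted p 0.0739) also had higher levels in 3 of 3 lines without passing.

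The remaining members lay further from the threshold. CFI had a log2 change of 0.25 with an adjusted p of 0.155, C1R 0.26 with 0.156 and CD59 -0.21 with 0.215. C3 had 0.19 with an adjusted p of 0.428 and was higher in 2 of 3 lines, and CD46 had 0.07 with 0.558. At an unadjusted p under 0.05, 6 members were higher and 0 lower, against 11.6% and 13.7% of all genes. Which members passed depended on the lines in the fit. Without HAQ/-, 5 members passed: CFB, C1S, SERPING1 and CD55 with higher levels and CD59 with a lower one. In that fit 8.64% of all genes passed with a higher and 8.66% with a lower level, so calls were more frequent throughout. Without WT/HAQ, 0 members passed, against 0.865% and 0.326% of genes, and the adjusted p of C1S was 0.157. Without WT/-, 0% of genes passed in either direction, and the adjusted p of C1S was 0.332. Over the alternatives, its adjusted p ranged from 0.0148 to 0.91 and that of CFB from 8.73e-05 to 0.391.

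Whether the response of HAQ/- differed from that of the lines with a WT allele was tested as an interaction term in edgeR, a comparison added after the folds had been seen. It leaves 1 residual degree of freedom and rests on 1 HAQ/- library pair, so its standard errors lean on the variance of other genes. As fitted with TMM, CFB passed, with a response lower by a log2 difference of -2.03 ± 0.34 (SE) and an adjusted p of 0.0366, which ranged from 0.000117 to 0.117 over 3 alternatives and did not pass with DESeq2 size factors. Over all genes, 1.01% passed with a smaller response in HAQ/- and 0.172% with a larger one. The same difference was -0.44 for CD55 (adjusted p 0.438) and -0.9997 for SERPING1 (adjusted p 0.843), and no other member passed. For these genes a difference between the lines in response is therefore not shown, although their folds were smallest in HAQ/-.

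The lines were compared in level by the line terms of the same edgeR fit, averaging over the control and cGAMP libraries. The p-values of these contrasts rest on how the treatment response varied between lines, not on a spread between clones of the same genotype. The WT/- clone had higher levels than the parent of C3 (log2 difference 2.20 ± 0.16 SE, adjusted p 0.00614), C1S (2.01 ± 0.12, 0.00437), C1R (1.68 ± 0.11, 0.00455) and CFI (1.35 ± 0.11, 0.00724). These 4 of 9 members stand against 4.99% of all genes higher in that contrast. CD55 was lower, by a log2 difference of -1.18 ± 0.14 (adjusted p 0.0169), against 3.81% of genes. CFB, at 0.98 ± 0.55, did not pass (adjusted p 0.2998). In the control libraries C3 was 5.41-fold higher in WT/- than in WT/HAQ (5.19 to 5.65).

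The HAQ/- clone had lower levels than the parent of C3, at a log2 difference of -3.34 ± 0.17 (adjusted p 0.00889), and of CD55, at -1.17 ± 0.14 (adjusted p 0.0383). In this contrast 0.846% of all genes were lower and 0.377% higher, and no member was higher. CFB, at -1.91 ± 0.59, did not pass (adjusted p 0.191). CD55 stood below the parent in both clones, at 0.471 of the parental control level in WT/- and 0.533 in HAQ/-, and its level did not pass between the clones (log2 difference 0.01, adjusted p 0.961). With treatment left out of the fit, so that its effect counts as spread, CD55 did not pass in either clone (adjusted p 0.159 in WT/- and 0.325 in HAQ/-), nor did C1S in WT/- (0.0826).

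Between the clones, 6 members were lower in HAQ/- than in WT/-, against 11.1% of all genes lower and 7.95% higher. C3 differed most, by a log2 difference of -5.55 ± 0.19 (adjusted p 0.0014), followed by CFB (-2.89 ± 0.59, 0.0319) and C1S (-2.12, 0.00202). C1R (-1.76, 0.00221), CFI (-1.65, 0.00247) and CD46 (-0.42, 0.0256) also passed. Without the treatment term, CFB (adjusted p 0.223), C1S (0.0512) and CD46 (0.0711) did not. C3 was 44.4-fold (39.6 to 49.7) higher in WT/- than in HAQ/- among the control libraries and 49.7-fold (43.6 to 56.6) among the cGAMP libraries. For CFB the corresponding ratio was 4.66 without and 13.9 with cGAMP. These 3 contrasts share libraries, and each line other than the parent is 1 clone. Markers also differed between lines. Of the hepatocyte genes, ALB lay at 154 to 244 normalized counts in HAQ/- out of a range of 154 to 574. SERPINA1 had the same order of lines as C3, with 262 and 186 in WT/-, 152 and 145 in WT/HAQ, and 66.3 and 67.9 in HAQ/-. The carcinoma gene KRT19 was at 5629.7 in the parental control against 364 and 413.5 in the WT/- and HAQ/- controls, and EPCAM at 736 and 772 in the parent against 420 to 460 in the clones. PAX8 was lower after cGAMP in every line, at 6751 and 1966 in WT/HAQ, 9391 and 4970 in WT/-, and 4613 and 3276 in HAQ/-. The part of these markers in the differences was not tested.

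**Figure D3:**
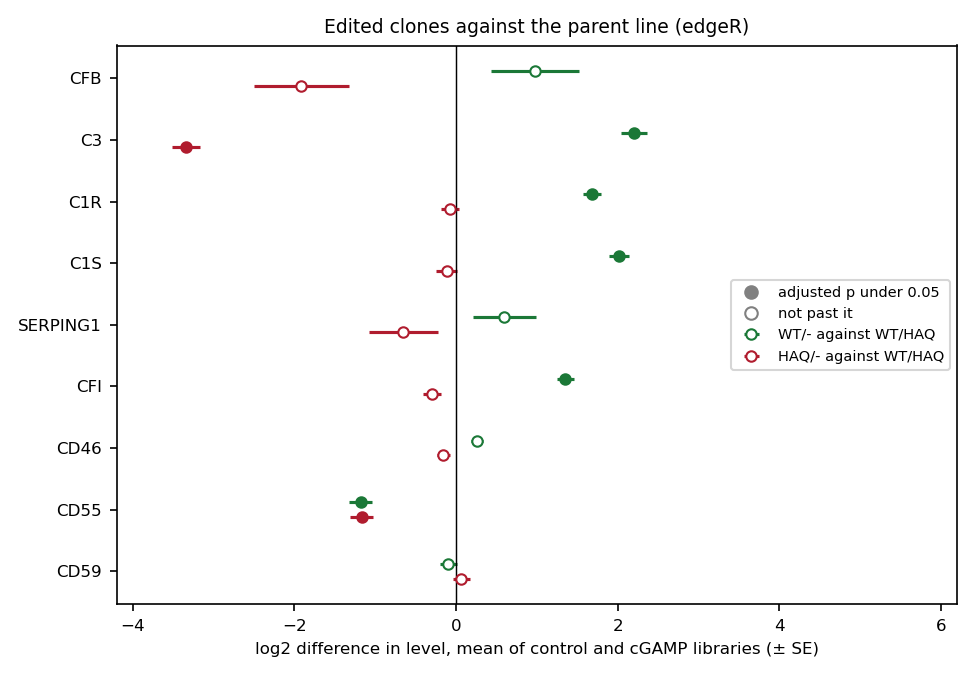
Log2 difference in level of each clone from the parent (horizontal axis), averaged over control and cGAMP libraries, with bars of 1 SE from the edgeR fit. Filled points have an adjusted p under 0.05. C3 lies on opposite sides, at 2.20 in WT/- and -3.34 in HAQ/-, and CD55 lies at -1.18 and -1.17.

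Components and inhibitors were compared per kb of canonical transcript, the scale on which levels of different genes can be set side by side. In the WT/HAQ control, the membrane inhibitors led, with CD46 at 1294, CD59 at 1145 and CD55 at 1101 normalized counts per kb, above C3 at 417 and CFB at 259.5. Their order depends on the length used: per kb of merged exons CD59 was at 820.0, well above CD55 at 278 and CD46 at 277, and CD59 also led in HAQ/- (762 against 245 for CD46 in the control). After cGAMP, CFB was the highest member in WT/HAQ (2995 per kb) and in WT/- (4618 per kb). In the WT/- control C3 was the highest, at 2259 per kb. In HAQ/- the 3 membrane inhibitors stood above CFB and CFB above CFI, with and without cGAMP, on both lengths, with CFB at 163 and 333 per kb.

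Summed over members, the inhibitors varied little between libraries and the components varied widely. The 5 inhibitors summed to 3643 and 4248 normalized counts per kb without and with cGAMP in WT/HAQ, 3326 and 3615 in WT/-, and 2880.0 and 3060.4 in HAQ/-. The 4 components summed to 786 and 3751, 3425 and 7541, and 319 and 521. The components thus made up 17.7% of the total in the WT/HAQ control and 46.9% after cGAMP, 50.7% and 67.6% in WT/-, and 9.98% and 14.6% in HAQ/-. With the length of all merged exons in place of the canonical transcript, these shares were 19.9% and 54.3%, 54.2% and 72.7%, and 10.5% and 15.8%.

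The make-up of the component sum also shifted. C3 was 53.1% of it in the WT/HAQ control and 16.1% after cGAMP, while CFB was 33.0% and 79.8%. In WT/-, C3 was 66.0% and 31.7% and CFB 22.2% and 61.2%. In HAQ/-, CFB was already the larger part in the control, at 51.2%, and 63.9% after cGAMP. The ratio of C3 to CFB per kb went from 1.61 to 0.201 in WT/HAQ, from 2.97 to 0.518 in WT/- and from 0.311 to 0.145 in HAQ/-.

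**Figure D4:**
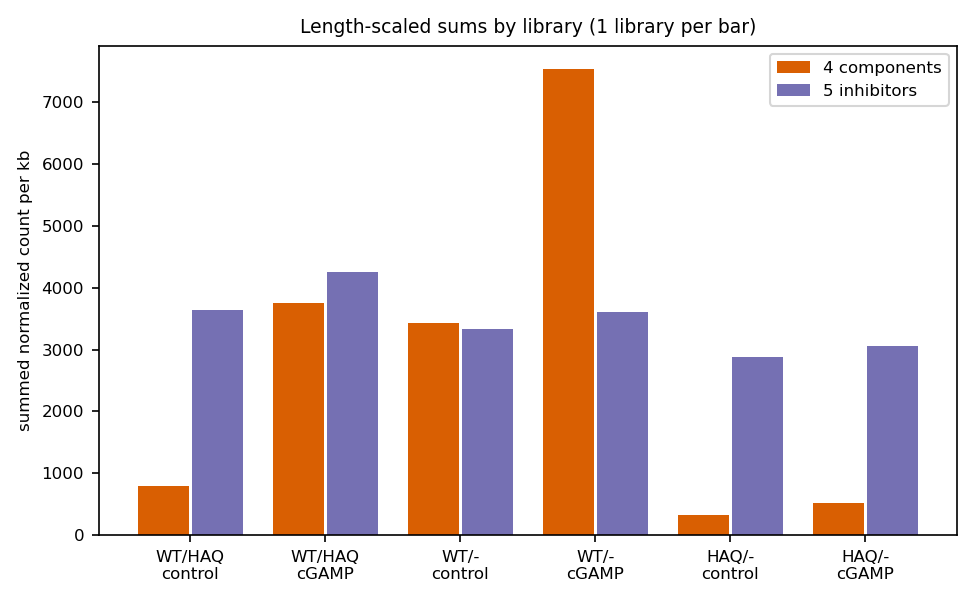
Summed normalized counts per kb (vertical axis) of the 4 components and 5 inhibitors in each library, 1 library per bar, with no error bars because there are no replicates. Inhibitor sums lie between 2880.0 and 4248, and component sums between 319 and 7541.

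Taken gene by gene, the groups overlapped in their cGAMP folds. The median log2 fold of the components exceeded that of the inhibitors by 0.37 in the parent line, and by 0.20 and 0.18 in the WT/- and HAQ/- clones. Counting error gives these differences a 95% margin of ± 0.31, ± 0.22 and ± 0.24, which only the first exceeded. Component folds spanned 0.25 to 3.53, 0.08 to 2.60 and -0.08 to 1.03 on the log2 scale, and inhibitor folds -0.35 to 2.29, -0.25 to 1.54 and -0.02 to 0.88. At 1.5-fold, 2, 1 and 2 of 4 components and 2, 2 and 1 of 5 inhibitors were raised in WT/HAQ, WT/- and HAQ/-. With CFB left out, the component medians were 0.53, 0.31 and 0.20, and with SERPING1 left out the inhibitor medians were 0.15, 0.15 and 0.16. With CFI in neither group, the differences were 0.25, 0.03 and 0.28. The margins above were worked out with CFI among the inhibitors, so they do not apply to these values.

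Of the 47 other complement genes described here, from a textbook list, 11 were expressed highly enough to be tested, and 19 had no count in any library. Among those without a count were C1QA, C1QB and C1QC, the subunits of the recognition protein that carries C1r and C1s, and C6, C8A, C8B, C8G and C9 of the membrane attack complex. In the edgeR treatment test across lines, 0 of these 11 were higher and 0 lower, against 2.27% and 0.959% of all genes. At an unadjusted p under 0.05 there was 1, against 11.6% of all genes higher and 13.7% lower, and the DESeq2 Wald test called 0, against 5.2% and 3.93%.

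The most abundant of these genes had small cGAMP folds. THBD, thrombomodulin, which promotes inactivation of C3b, stood at 2305 and 1996 normalized counts in WT/HAQ, 360.2 and 262 in WT/- and 1088 and 1147 in HAQ/-. C1QBP lay between 432 and 586 in the 6 libraries, CLU, the fluid-phase inhibitor clusterin, between 95.05 and 207, and CFD, the protease that activates factor B, between 46.7 and 146. ITGB2, the beta chain of the leukocyte complement receptors, lay between 50.4 and 162. Against the parent, the WT/- clone had 2 of the 11 higher (CLU, and ITGB2 at a log2 difference of 1.44) and 2 lower (THBD, at -2.79, and CFD, at -1.45), against 4.99% and 3.81% of all genes, and the HAQ/- clone had 0 either way, against 0.377% and 0.846%. HAQ/- had 2 higher than WT/- (THBD and CFD) and 1 lower (ITGB2), against 7.95% and 11.1% of all genes. Without the treatment term, CLU (adjusted p 0.0553) and ITGB2 (0.0507) did not pass between WT/- and the parent, nor CFD between the clones (0.0742, and 0.106 by the DESeq2 Wald test). THBD in HAQ/- against the parent, at a log2 difference of -0.94 (edgeR adjusted p 0.0569), passed in 2 of 5 alternatives. At 1.5-fold, 1, 3 and 1 of the 11 passed the raised threshold in the parent, WT/- and HAQ/- lines (12.9%, 11.9% and 6.77% of all genes) and 0, 0 and 2 were lowered (12.3%, 8.79% and 5.79%), with median log2 folds of -0.04, 0.21 and 0.04. The genes raised or lowered at 1.5-fold had at most 70 estimated counts in any library, and no interval is given for their folds. C4A and C4B are near-identical copies whose reads may be split between them, so their separate values are uncertain.

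**Figure D5:**
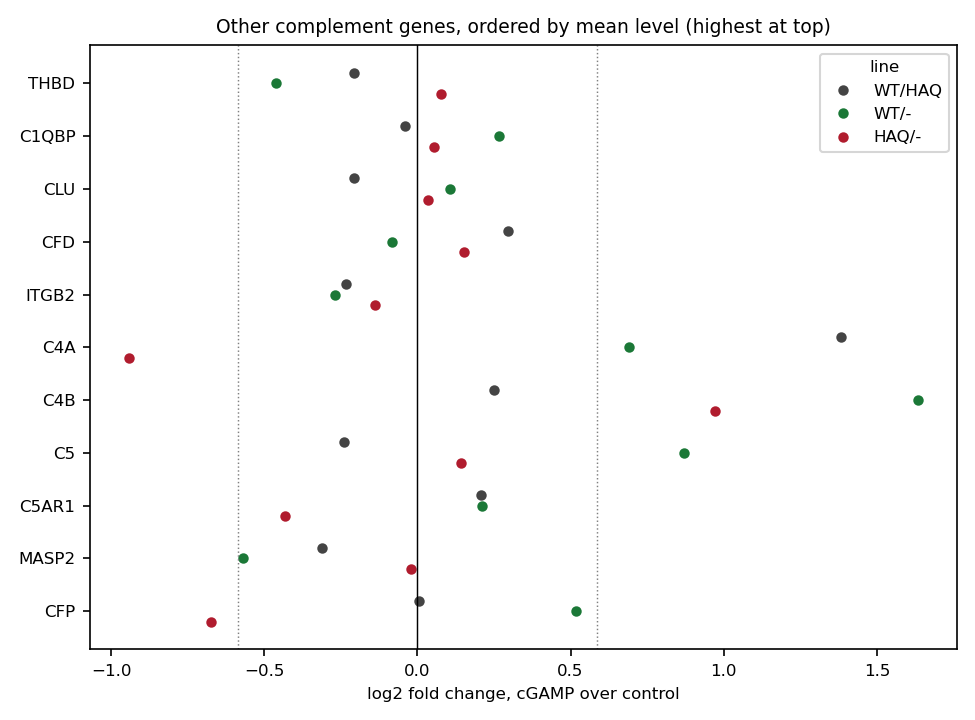
Log2 fold change of the cGAMP over the control library (horizontal axis) in each line for 11 other complement genes, ordered by mean level, 1 library pair per point, with dotted lines at 1.5-fold. The 5 most abundant, from THBD to ITGB2, lie between the dotted lines in all 3 lines of cells, and C4A lies on both sides, uncertain because of its near-identical copy.

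Genes with the most similar pattern to each member were sought by the Euclidean distance between their 5 log2 levels relative to the WT/HAQ control, over genes with a mean of at least 50 counts. The 6 libraries are the only points behind each distance, and it is a description with no test. The genes nearest to CFB were CITED2 (distance 1.02), CSPG4P10 (1.24) and EPHA4 (1.25). Those nearest to C3 were IL6 (1.59), CSF1 (1.70) and TLR2 (2.17), so that both stood further from their neighbors than the other members did. C1R was nearest to YPEL2 (0.41), KCNQ3 (0.46) and DNMT3B (0.54), and C1S to KCNQ3 (0.94), NFKBIZ (1.04) and MEF2C (1.05), so that KCNQ3 was near both neighbors.

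Among the inhibitors, SERPING1 was nearest to UBA7 (0.54), C19orf66 (0.55) and PARP10 (0.57), and CFI to P2RY6 (0.22), MCC (0.35) and BTN2A3P (0.37). CD55 was nearest to C9orf64 (0.58), ARFGEF3 (0.65) and FAIM (0.66). CD46 and CD59, which varied least, had neighbors at 0.09 (NIPA1) and 0.06 (SPRY3). The 2 next nearest to CD46 were DIAPH2 (0.10) and RAB5C (0.11), and those to CD59 were SNRPA (0.07) and CCDC137 (0.07).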

How the data were processed

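Poly(A) RNA of 6 SKOV3 cultures, 1 per line and treatment, was sequenced as paired-end reads. A single table of estimated counts, made with STAR and RSEM, was deposited by the authors with a column per library. These tools and GRCh38 are named in the submitters' processing notes; their versions, the annotation and the strand setting are not given in the sources used here. Between 92.7% and 93.3% of the values were whole numbers, and all were rounded before use. Reads shared by overlapping or near-identical genes are split by RSEM as an estimate.

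Counts were normalized by TMM and tested with edgeR 4.0.16 (quasi-likelihood F test, line and treatment as terms, genes averaging 10 or more counts, Benjamini-Hochberg adjustment over all of them). The control and the cGAMP library of a line come from the same cells and form a pair. All 9 members passed the filter. Replicates of a group were not available. The edgeR p-values are set against the variation of the treatment response between lines. The quasi-likelihood fit draws each gene's variance toward that of other genes. The p-values and standard errors therefore do not rest on the gene's own spread alone. In the line contrasts the variation used is not the spread between clones. Folds within a line are ratios of normalized counts, with counts under 3 set to 3 and Wilson intervals at 95% for counting error only, and are called at 1.5-fold. Standard errors were derived from the F statistic. Lengths come from GENCODE 44 and promoter windows from RefSeq. The procedure was tested on simulated data. DESeq2 1.42.0, other filters and scalings, other thresholds and leaving out each line were tried as alternatives.

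The members and gene lists were chosen with earlier results of these data known. All members were named. Of the other complement genes, those called by the treatment test and the 5 with the highest mean were named by rule. C2, C4A, C4B and the genes without counts were named after their values were seen. One gene of the complement list is not reported here, and the counts over that list leave it out. For each member, the 3 nearest genes in pattern were named.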

Additional observations from a re-analysis of the deposited data

Results flagged for a closer look

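CFB had a smaller cGAMP response in HAQ/- by an interaction test that rests on 1 HAQ/- library pair and 1 residual degree of freedom, was chosen after the folds were seen, and does not pass with DESeq2 size factors (adjusted p 0.117). The log2 response in HAQ/- was lower than that of the lines with a WT allele by a difference of -2.03 (edgeR quasi-likelihood test, adjusted p 0.0366), with folds of 11.5 in the parent line and 6.06 in the WT/- clone against 2.04, from 1 library pair per line. Haplotype and clone cannot be told apart. Groups of 1 library allow no search for outlying samples.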

How the results depend on the processing

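The number of members passing the treatment test, 1 as reported, with 3.23% of all genes called in either direction, was 3 at a mean count of at least 1 (4.83% of genes), 0 at a mean count of at least 50 (2.92%), 0 with DESeq2 size factors (2.82%), 0 with no replicate block, the pairing by line left out (0.41%), and 4 by the DESeq2 Wald test (9.14%). Leaving out each line in turn gave 0 to 5 (0% to 17.3%). The members passing between lines went, with treatment left out as a block, from 5 to 3 for WT/- against WT/HAQ (8.81% to 1.63% of genes), from 2 to 1 for HAQ/- against WT/HAQ (1.22% to 0.0926%) and from 6 to 3 for HAQ/- against WT/- (19.1% to 4.69%), where CD55 went from 0.01 to -0.0207 on the log2 scale. The CFB interaction did not pass with DESeq2 size factors, leaving 0 members (0.674% of genes, from 1.18%), and CD46 there went from -0.0018 to 0.0075. Near-zero values also changed sign for CLU, whose treatment effect became 0.0076 with no replicate block and lay between -0.0715 and 0.0735 with each line left out in turn, and for CFD, whose interaction became -0.0106 at a mean count of at least 1 and -0.0134 at 50. At a threshold of 2-fold, 2, 2 and 1 members were raised in WT/HAQ, WT/- and HAQ/- (7.38%, 6.58% and 3.11% of genes). In each line 0 were lowered, against 5.36%, 3.48% and 1.94% of genes. At 1.2-fold, 6, 5 and 4 were raised (24.2%, 23% and 15.5%), and 1 was lowered in the parent line (26.6%). Each clone had 0 lowered members at this fold, beside 22.5% of genes for the WT/- clone and 17.3% for the HAQ/- clone. By means, components exceeded inhibitors by 0.67 log2 units in WT/HAQ (0.37 by medians), 0.43 in WT/- (0.20) and 0.16 in HAQ/- (0.18). With CFI in neither group the medians differed by 0.25, 0.03 and 0.28 in WT/HAQ, WT/- and HAQ/-. Scaling by total counts only left 2 members raised in WT/- (10.7% of genes) in place of 3. The cause of these shifts was not tested. Leave-one-out was not possible for the interaction, which would keep no residual degrees of freedom. Alternatives to the interaction were chosen after seeing the data. Scaling moved the median of all genes by at most 0.062 log2 units. Depth limits SERPING1 most, at 13 to 59 estimated counts.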
